A study of Mus musculus with 12 samples.

Results

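The nuclear genes that encode subunits of the mitochondrial respiratory chain and ATP synthase were followed in aggregates of HC11 cells, a mouse mammary epithelial line. They were found by symbol in the deposited expression table, as names beginning with Ndufa, Ndufb, Ndufc, Ndufs or Ndufv and a number, the names Sdha to Sdhd and Cyc1, and names beginning with Uqcr, Cox4 to Cox8 or Atp5, and 14 names with the pseudogene mark "-ps" were left out. This gave 94 of the 57180 genes of the table, 43 in complex I, 4 in complex II, 9 in complex III, 19 in complex IV and 19 in complex V. They carry 93 symbols, because Atp5po stands for 2 identifiers. The rule reads symbols and no measured value, but it was set with earlier results of these data known.

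The series asks what Snail1, the transcriptional repressor encoded by Snai1, does in collective migration. Cells with a control construct (titled scr, genotype WT) or with a Snail1 knockdown (titled snail1) were sorted, aggregated overnight in medium with serum, EGF and insulin, and put through an in vitro migration assay. Messenger RNA was sequenced at the start (0 h) and after 36 h. Each of the 4 groups, control 0 h, control 36 h, knockdown 0 h and knockdown 36 h, held 3 libraries, numbered 1 to 3 except for control 36 h (1, 3 and 4). All cells were of 1 line. The sample labels do not name the knockdown construct, while the authors' pooled columns for the knockdown are headed "sh_snail1". Nothing in the labels gives the libraries of a group as separate cultures. The p-values below therefore reflect the spread among these libraries alone, and that spread may be technical. Control 36 h library 4 has "mix" in its title, which is not explained.

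Complex I (NADH dehydrogenase), complex II (succinate dehydrogenase), complex III and complex IV (cytochrome c oxidase) pass electrons to oxygen, and complexes I, III and IV pump protons across the inner membrane. Complex V, the ATP synthase, uses the returning protons to make ATP. A few subunits of complexes I, III, IV and V are encoded in mitochondrial DNA, all of complex II is nuclear, and many nuclear subunits are small accessory proteins that carry no redox centre. The nuclear factors NRF1 and GABPA (NRF-2) are textbook activators of many of these genes, and Snail1 binds E-boxes with the core CACCTG.

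Promoters are shown for 5 genes to set a rise at 0 h against the presence of these motifs: Ndufb4, Cox6a1, Ndufs4 and Atp5f1e rose in the knockdown, and Sdha did not pass. They are RefSeq sequences of the build GRCm38.p6, the 250 bases before the gene start, all on the minus strand of the chromosome and printed 5′ to 3′ in the direction of the gene. The expression table was made on GRCm39, so these coordinates belong to the sequences only. Capitals mark matches on either strand to GCGCNTGCG (NRF1), CCGGAAG (GABPA) or CACCTG (Snail E-box).
Ndufb4, chr16:37654369-37654618: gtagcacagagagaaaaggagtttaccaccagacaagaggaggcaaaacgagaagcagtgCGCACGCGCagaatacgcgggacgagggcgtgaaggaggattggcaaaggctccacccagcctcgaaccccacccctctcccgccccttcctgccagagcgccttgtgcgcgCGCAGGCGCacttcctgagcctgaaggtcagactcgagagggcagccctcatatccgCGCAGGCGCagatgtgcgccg
Cox6a1, chr5:115348959-115349208: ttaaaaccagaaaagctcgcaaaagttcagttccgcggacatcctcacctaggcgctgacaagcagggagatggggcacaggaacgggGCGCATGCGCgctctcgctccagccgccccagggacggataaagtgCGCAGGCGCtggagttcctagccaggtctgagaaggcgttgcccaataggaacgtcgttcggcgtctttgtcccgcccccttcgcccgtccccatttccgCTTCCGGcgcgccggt
Ndufs4, chr13:114388095-114388344: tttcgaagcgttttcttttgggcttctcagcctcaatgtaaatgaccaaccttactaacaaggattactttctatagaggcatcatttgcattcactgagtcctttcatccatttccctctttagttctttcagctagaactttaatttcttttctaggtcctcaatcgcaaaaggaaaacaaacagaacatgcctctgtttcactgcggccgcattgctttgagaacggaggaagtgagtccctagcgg
Atp5f1e, chr2:174464102-174464351: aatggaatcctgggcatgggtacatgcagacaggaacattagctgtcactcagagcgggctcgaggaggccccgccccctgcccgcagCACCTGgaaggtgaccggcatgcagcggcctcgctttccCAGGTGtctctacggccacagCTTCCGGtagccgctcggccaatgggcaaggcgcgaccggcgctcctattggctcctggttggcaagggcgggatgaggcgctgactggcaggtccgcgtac
Sdha, chr13:74350241-74350490: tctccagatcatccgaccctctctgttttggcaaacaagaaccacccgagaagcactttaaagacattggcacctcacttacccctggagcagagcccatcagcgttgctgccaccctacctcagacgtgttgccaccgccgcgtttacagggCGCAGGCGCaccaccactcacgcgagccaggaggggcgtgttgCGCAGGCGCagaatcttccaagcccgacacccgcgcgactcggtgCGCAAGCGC

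The Ndufb4 promoter held 3 NRF1 matches, beginning 190, 78 and 21 bases before the gene start, and that of Sdha held 3, at 97, 54 and 9 bases. Cox6a1 had NRF1 matches at 162 and 161 bases, which overlap as the same letters read on both strands, another at 116 bases and a GABPA match at 16 bases. Atp5f1e had E-box matches at 162 and 123 bases and a GABPA match at 102 bases, and Ndufs4 had no match in this window. No match to 1 motif overlapped a match to another. Of the 93 symbols, 69 had a promoter in the table, 64 of them for genes that were tested. An NRF1 match stood in 17 of these 64 (26.6%), against 5.19% of all 32851 promoters of full length. A GABPA match stood in 12 (18.8%, against 6.91%) and a Snail E-box in 13 (20.3%, against 17.2%). These shares are not fully alike. A member counted if any of its promoters matched, while the other share counts single promoters, whether or not their gene was tested here. Among the genes that rose at 0 h and had a promoter, 6 of 26 held an NRF1 match, 7 a GABPA match and 5 a Snail E-box. Among the 38 tested genes that did not rise, 11 held an NRF1 match, 5 a GABPA match and 8 a Snail E-box. These matches are letters in a window and were not tested as binding sites.

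Values are TPM, transcript levels scaled by gene length and to a common total per library, so each value is a share of its library and the sequencing depth is unknown. In bulk RNA, fewer cells of a type and less RNA per cell cannot be told apart. Snai1, the targeted gene, stood at 1.34, 2.51 and 1.69 TPM in the control 0 h libraries and at 0.58, 0.79 and 0.48 TPM in the knockdown 0 h libraries. At 36 h it stood at 2.77, 2.69 and 3.92 TPM in control and at 0.58, 0.44 and 0.20 TPM in the knockdown, so every knockdown library lay below every control library of its time. Mammary epithelial markers were present (Krt14 at 2206 TPM or more, Epcam at 214 TPM or more), while Krt19 and the milk protein gene Csn2 stayed at or below 0.42 and 0.06 TPM. The summed markers of immune, fibroblast, endothelial, adipocyte and muscle cells reached at most 16.1, 23.7, 7.07, 14.1 and 14.1 TPM, with Adipoq listed at 0 in all libraries and Ptprc at 0.17 TPM or less. Knockdown 0 h library 2 stood apart: genes under 300 bases took 10.6% of its TPM (2.32% to 5.23% in the other 11), those of ribosomal proteins 12.2% (3.83% to 5.79%) and mitochondrially encoded genes 14.0% (1.45% to 6.15%), and its summed mammary epithelial markers came to 3327 TPM (9861 to 25464). Its median correlation with its group, across genes, was 0.861, against 0.894 to 0.969, and results are given with and without it. Knockdown 0 h libraries 1 and 3 also lay above all 3 control 0 h libraries in the share of genes under 300 bases (3.87% and 5.23% against 2.32% to 3.19%) and of ribosomal protein genes (5.37% and 5.79% against 3.83% to 5.10%), and the part of these shares in the differences at 0 h was not tested.

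The 94 genes together took a large share of the RNA, and that share was highest in the knockdown at 0 h. Their summed level was 53578, 56708 and 55647 TPM in the control 0 h libraries and 77441, 97485 and 74213 TPM in the knockdown 0 h libraries. At 36 h it was 51690, 59540 and 55138 TPM in control and 66324, 66559 and 67748 TPM in the knockdown. At each time the lowest knockdown sum exceeded the highest control sum. The ratio of means was 1.5 at 0 h (83046 ± 12608 against 55311 ± 1592 TPM, mean ± SD, n = 3 each), 1.37 without knockdown 0 h library 2, and 1.21 at 36 h (66877 ± 763 against 55456 ± 3934 TPM).

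The complexes did not share 1 ratio. At 0 h the summed level of complex IV stood at 1.74 times control (1.46 without library 2), complex V at 1.48 (1.36), complex I at 1.46 (1.37) and complex III at 1.37 (1.30). Complex II stood at 0.876 times control with library 2 and at 1.10 without it, since its 4 genes summed to 592 TPM in that library against 1624 and 1451 TPM in libraries 1 and 3. At 36 h the ratios were 1.27 for complex IV, 1.21 for complex I, 1.18 for complex V, 1.15 for complex III and 1.08 for complex II. The 13 mitochondrially encoded proteins of the same complexes stood at 1.72 times control at 0 h, at 1.13 without library 2 and at 1.09 at 36 h.

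**Figure D1:**
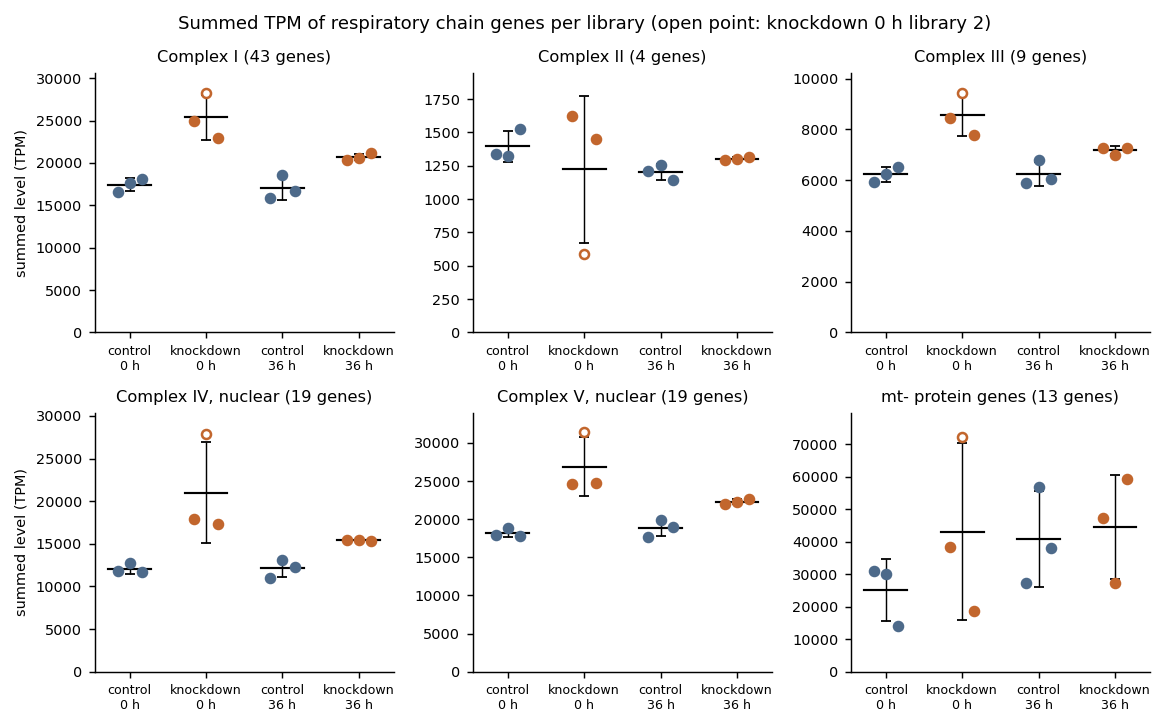
Summed level (TPM, axes from 0) of the nuclear genes of complexes I to V and of the 13 mitochondrially encoded proteins, 1 point per library, with the mean (line) and SD (bar) of each group of 3. The knockdown libraries of complexes I, III, IV and V lie above the controls at both times, while knockdown 0 h library 2 (open point) is lowest for complex II (592 TPM) and highest for complex IV (27832 TPM).

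Single levels spanned a wide range. The 82 genes that passed the filter (at least 1 TPM in at least 3 libraries) were led over all 12 libraries by Cox4i1 (mean 3066 TPM), Ndufa4 (2707 TPM) and Atp5pd (2556 TPM, a stator subunit of ATP synthase). Ndufa4 is classed here in complex I by its name, although it is described in complex IV. It therefore enters the sums and counts of complex I and its other subunits, and not those of complex IV. All but 2 averaged 40 TPM or more, the exceptions being Cox6c2 (0.593 TPM) and Ndufb4b (7.25 TPM). The highest genes of complexes II and III were Sdhd and Uqcr11. The 12 genes below the filter were forms used in muscle, testis or other tissues or near-copies: Cox4i2, Cox6a2, Cox6b2, Cox7a1, Cox7b2 and Ndufa4l2 reached at most 0.51, 0.61, 0.84, 0.91, 1.52 and 0.62 TPM in any library. Ndufa11b and Ndufs6b each appeared in 1 library, and Cox8b, Cox8c, Ndufb11b and the second Atp5po identifier were listed at 0 in all. Their common partners Cox4i1, Cox6a1, Cox6b1, Cox7a2, Cox7b, Cox8a and Ndufa4 were all tested.

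At 0 h many subunits were higher in the knockdown and none was called lower. Of the 82 tested genes 33 rose and 0 fell in limma (adjusted p under 0.05), where 3.1% of all 14426 tested genes rose and 14.6% fell. At an unadjusted p under 0.05 the counts were 46 higher and 0 lower, beside 1050 and 4331 of all 14426 genes. The median log2 difference of the 82 was 0.51, against -0.41 over all tested genes, and 65 of 82 were positive. In 47 genes every knockdown library lay above every control library (7.24% of all tested genes) and in 0 every one lay below (30.7%). Without knockdown 0 h library 2, 50 rose and 0 fell (6.74% and 16.5% of all genes), with a median of 0.44 against -0.16. The counts at an unadjusted p under 0.05 were 62 higher and 1 lower, beside 1652 and 3635 of all genes. The groups then did not overlap in 64 higher and 2 lower genes (16.2% and 33.2%), and all of the 33 but Ndufb4b remained called.

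With median-of-ratios scaling, which moved the median of all genes from -0.41 to -0.02, 44 rose and 0 fell (7.73% and 10.9% of all genes, 1115 higher and 1566 lower where the unscaled values gave 447 and 2103), and the members' median was 0.97. The count of 33 fell to 5, 17 and 12 when control 0 h library 1, 2 or 3 was left out. In the same fits all genes called fell from 2550 to 747, 1008 and 932. In a limma fit of only the 6 libraries at 0 h the count of 33 became 0. There 7 of all genes were called higher (0.0485%) and 9 lower (0.0624%). That fit had 34 members higher and 0 lower at an unadjusted p under 0.05, beside 619 and 2634 of all genes.

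In complex I at 0 h 0 of 7 tested core subunits of the redox arm rose (median -0.08) and 16 of 32 other subunits rose (median 0.61). Without library 2 these counts were 3 of 7 and 23 of 32, and the summed levels stood at 1.26 and 1.39 times control. At 36 h the sums stood at 1.22 and 1.21 times control, and a difference between core and other subunits was not tested. Ndufs4, an accessory subunit needed for a stable enzyme, stood at 135, 149.5 and 126 TPM in control and at 290.1, 298 and 265 TPM in the knockdown. Each knockdown library lay far above each control library, library 2 included. The difference was 1.05 on the log2(TPM + 1) scale (SE 0.173, limma adjusted p = 0.00415), and 1.02 without library 2. Ndufb4, a membrane-arm subunit, stood at 158, 179.7 and 174 TPM in control and at 309.7, 524 and 287 TPM in the knockdown (1.07, SE 0.224, adjusted p = 0.0112). Here too the groups did not overlap, but library 2 was well above libraries 1 and 3. Ndufb1 showed the same order more widely, with 154, 169 and 120.4 TPM in control and 234, 785 and 271 TPM in the knockdown (1.33, SE 0.375, adjusted p = 0.0346), and its difference was 0.78 without library 2.

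Ndufb4b had the largest log2 difference of the 33 (2.76, SE 0.873, adjusted p = 0.0497), at 2.51, 0 and 2.67 TPM in control and 7.32, 55.6 and 7.47 TPM in the knockdown. It lost its call in 18 of 26 alternatives, and since it is a low near-copy of Ndufb4, as is Ndufb4c (0.82), reads of these genes may be shared between them. The other called subunits were Ndufa1, Ndufa2, Ndufa6, Ndufb2, Ndufb3, Ndufb5, Ndufb11, Ndufc1, Ndufs5, Ndufs6 and Ndufv3, with differences from 0.56 (Ndufs5) to 0.90 (Ndufb2).

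The core subunits of complex I were low in library 2. Ndufs1, which carries iron-sulfur centres, stood at 155, 159.5 and 167 TPM in control and at 147, 109 and 181 TPM in the knockdown. Libraries 1 and 3 lay on either side of the controls, and library 2 lay far below them (-0.17, adjusted p = 0.542, and 0.02 without it). Ndufv1, which binds the flavin, had -0.08 (0.17 without library 2) and did not pass. Ndufa9, an accessory subunit with a long transcript, stood at 298, 87.2 and 245 TPM in the knockdown against 241 to 265 TPM in control (-0.44, adjusted p = 0.361). Without library 2, 3 of the 7 core subunits rose, Ndufs3 (0.31), Ndufs7 (0.51) and Ndufs8 (0.55). Ndufb8, an accessory subunit lost when the complex does not assemble, had 0.33 (adjusted p = 0.149), and 0.43 (adjusted p = 0.0249) without that library.

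None of the 4 succinate dehydrogenase genes passed at 0 h, and all 4 had negative differences, from -0.60 to -0.07. Sdhb, the iron-sulfur subunit, stood at 494, 503.5 and 587 TPM in control and at 568, 158 and 497 TPM in the knockdown. Libraries 1 and 3 lay within the range of the controls and library 2 far below it (-0.57, adjusted p = 0.274, and 0.01 without library 2). Sdha, the flavoprotein that oxidises succinate, stood at 188, 171 and 208 TPM in control and 146, 65.6 and 196 TPM in the knockdown (-0.60, adjusted p = 0.191). The membrane anchors Sdhc and Sdhd stood at 134 and 234 TPM in library 2, against 202 to 263 and 556 to 647 TPM in libraries 1 and 3. Without library 2 Sdhd rose (0.33, SE 0.104, adjusted p = 0.0439), whereas with it the value was -0.12. At an unadjusted p under 0.05, 0 of the 4 were higher or lower with all libraries and 1 was higher without library 2. Of all 14426 genes 1050 were higher and 4331 lower with all libraries, and 1652 and 3635 without library 2.

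In complex III the small subunits Uqcr11 and Uqcrh rose at 0 h and the 4 core genes did not. Uqcr11 stood at 1239.7, 1325 and 1529.6 TPM in control and at 2165, 2315 and 2044 TPM in the knockdown. All 3 knockdown libraries were higher and close together (0.68, SE 0.144, adjusted p = 0.0122). Uqcrh, the hinge protein at the cytochrome c1 docking site, had 0.78 (adjusted p = 0.00733). Uqcrc1, a large core protein, stood at 560.35, 555 and 759 TPM in control and at 665, 73.2 and 668 TPM in the knockdown. Libraries 1 and 3 lay within the controls, and library 2 was the lowest of all 12 by far (-0.95, adjusted p = 0.295, and 0.11 without it). Uqcrc2, its partner, stood at 156, 151 and 149 TPM in control and at 248, 105 and 214 TPM in the knockdown (0.22, adjusted p = 0.546). Without library 2 Uqcrc2 rose (0.60, adjusted p = 0.0014), as did the Rieske protein gene Uqcrfs1 (0.36, adjusted p = 0.0356), and Cyc1, cytochrome c1, had 0.26 (adjusted p = 0.221).

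Complex IV had the largest share of called genes among the complexes at 0 h, 8 of 12 tested (9 without library 2), with a median of 0.73 (0.48). Cox4i1, a regulatory subunit and the most abundant gene of the set, stood at 2589, 2639 and 2504 TPM in control and at 3996, 3499.9 and 4081 TPM in the knockdown. Each knockdown library lay above each control library, and library 2 was the lowest of the 3 (0.58, SE 0.122, adjusted p = 0.0116, and 0.65 without it). Cox7c stood at 722, 874 and 758 TPM in control and at 1198, 2966 and 1259 TPM in the knockdown (1.07, SE 0.298, adjusted p = 0.0321, and 0.65 without library 2). Cox8a stood at 1540.45, 1709.7 and 1465 TPM in control and 2498, 5927 and 2079.65 TPM in the knockdown (1.00, adjusted p = 0.0463, and 0.54). In both of these small subunits the groups did not overlap, and library 2 lay far above the other knockdown libraries. Cox7a2 (1.05), Cox6c (0.78), Cox6a1 (0.72), Cox5a (0.55) and Cox6b1 (0.51) rose as well. Cox7b (0.91, adjusted p = 0.0890) and Cox5b (0.57, adjusted p = 0.0641) did not pass. Cox7a2l, a related protein that links complexes III and IV, had 0.01 (adjusted p = 0.962), and Cox6c2 stayed at or below 3.69 TPM.

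In ATP synthase some subunits rose at 0 h. Of 18 tested genes 7 rose (10 without library 2), namely Atp5f1e, Atp5mg, Atp5me, Atp5mk, Atp5mf, Atp5pf and Atp5mc3. Atp5f1e, the small epsilon subunit of the central stalk, stood at 696, 791 and 674 TPM in control and at 1227, 3324 and 1530.5 TPM in the knockdown. The groups did not overlap, and library 2 was again much the highest (1.36, SE 0.295, adjusted p = 0.0132, and 0.93 without it). Atp5f1a and Atp5f1b, the alpha and beta subunits of the catalytic head, had -0.11 and 0.0011 (0.19 and 0.14 without library 2) and did not pass. Atp5f1b stood at 2321, 2223 and 2362 TPM in control and at 2453, 1906 and 2611.5 TPM in the knockdown, lower in library 2 than in any control. The 3 genes of the c-ring, which encode 1 mature protein, had 0.43 (Atp5mc1, adjusted p = 0.0877), 0.54 (Atp5mc2, adjusted p = 0.176) and 0.60 (Atp5mc3, adjusted p = 0.0318). Atp5if1, the inhibitor of ATP hydrolysis, had 0.41 (adjusted p = 0.0734), with no overlap between the groups.

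**Figure D2:**
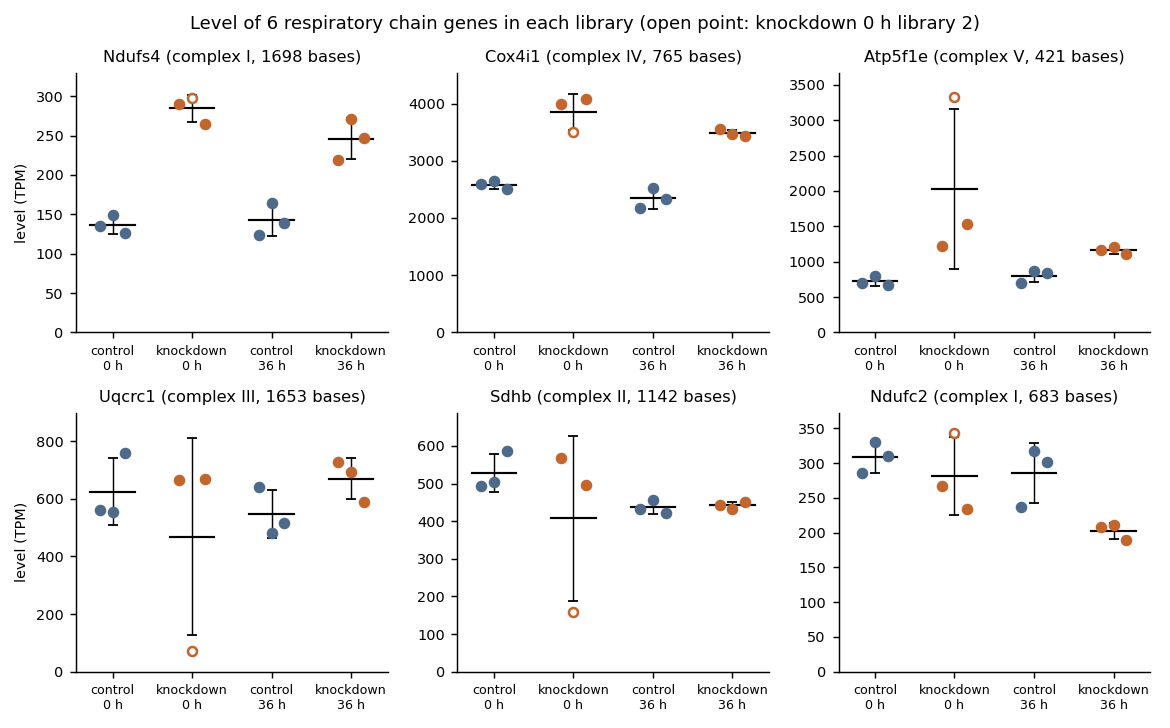
Level (TPM, axes from 0) of 6 genes in each library, with the mean (line) and SD (bar) of each group of 3. Ndufs4 and Cox4i1 are higher in all knockdown libraries at both times, Atp5f1e is much the highest in knockdown 0 h library 2 (open point, 3324 TPM), Uqcrc1 (73.2 TPM) and Sdhb (158 TPM) are lowest there, and Ndufc2 is lower in the knockdown at 36 h.

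At 36 h the same genes mostly stood a little higher in the knockdown, and 2 passed the test with all 12 libraries. Ndufs4 and Cox4i1 rose and 0 fell, where 0.894% of all tested genes rose and 1.64% fell. The counts at an unadjusted p under 0.05 were 17 higher and 1 lower, beside 788 and 1557 of all 14426 genes. The median of the 82 was 0.23, against -0.09 over all genes, and 74 were positive. Every knockdown library lay above every control library in 46 genes (14.8% of all genes) and below in 2 (22%), Ndufc2 and Cox7a2l. Ndufs4 stood at 124, 165 and 139 TPM in control and at 219, 272 and 247 TPM in the knockdown. The groups did not overlap, and the difference was 0.78 (SE 0.173, adjusted p = 0.0417). Cox4i1 stood at 2173, 2529 and 2326 TPM in control and at 3547, 3475 and 3435 TPM in the knockdown. The knockdown libraries were nearly alike and all higher (0.58, SE 0.122, adjusted p = 0.0353). Both calls were lost without any 1 library of the 36 h groups or of control 0 h. In those fits all genes called fell from 365 to between 24 and 222. Ndufs4 lost its call in 13 of 26 alternatives (limma adjusted p up to 0.412) and Cox4i1 in 14 (up to 0.350).

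The fit without knockdown 0 h library 2 left the 36 h differences as they were and gave smaller standard errors (0.122 in place of 0.173 for Ndufs4), because all groups share 1 estimate of the spread. In it 29 genes rose and 1 fell (6.88% and 11.7% of all genes), and in a limma fit of only the 36 h libraries 26 rose and 1 fell (5.61% and 9.48%). Complex I held 18 of the 29, among them the core subunits Ndufs3, Ndufs7, Ndufs8 and Ndufv1. It is also the largest complex of the set, with 43 of the 94 genes, and a difference in called share between complexes was not tested. Complex V held 5 (Atp5f1b, Atp5f1d, Atp5f1e, Atp5mg and Atp5pd), complex III held Uqcr11, Uqcrc2 and Uqcrh, complex IV held Cox4i1, Cox6a1 and Cox7a2, and complex II held none. Uqcrc2 stood at 154, 153 and 146 TPM in control and at 205.5, 228 and 224 TPM in the knockdown, without overlap (0.53, adjusted p = 0.00181 without library 2 and 0.369 with it). Atp5f1e stood at 697, 864 and 833 TPM in control and at 1169.8, 1205 and 1109 TPM in the knockdown, also without overlap (0.55, adjusted p = 0.00858 and 0.412).

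Ndufc2, a membrane-arm subunit of complex I, was the 1 gene that fell at 36 h in the fit without library 2. It stood at 237, 318 and 301 TPM in control and at 208, 211 and 189 TPM in the knockdown at 36 h, where every knockdown library was the lower (-0.48, adjusted p = 0.0190 without library 2 and 0.230 with it). At 0 h it had -0.15, and -0.30 without library 2, and did not pass (adjusted p = 0.569 and 0.124). Sdhb, by contrast, stood at 433, 456 and 422 TPM in control and 442, 433 and 450.3 TPM in the knockdown at 36 h, a difference of 0.02.

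Without knockdown 0 h library 2, 27 genes rose at both times, which is 27 of the 50 called at 0 h and 27 of the 29 called at 36 h (3.87% of all tested genes rose at both). Knockdown libraries lay above controls without overlap at both times in 42 genes (8.86% of all genes), and in 28 with all libraries (3.51%). The differences at the 2 times, which share no library, had the same sign in 74 of 82 genes without library 2 and in 61 with it. Across the 82 genes, which are not independent replicates, their Spearman correlation was 0.69 (Pearson 0.58) without library 2 and 0.35 (0.22) with it. The same-sign share and the correlation over all tested genes are not given here. Whether this likeness of the 2 times is particular to the members was not tested.

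**Figure D3:**
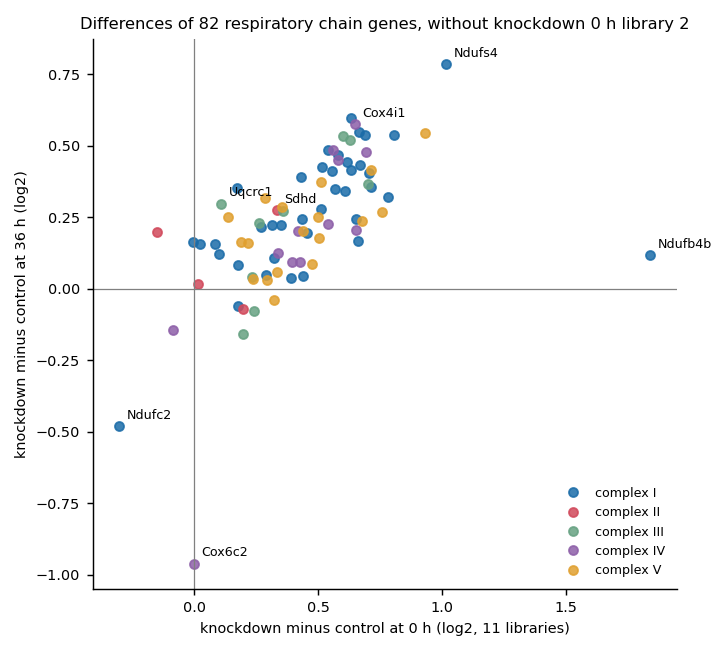
Knockdown minus control (log2 scale) at 0 h, without knockdown 0 h library 2, on the x axis and at 36 h on the y axis, 1 point per gene, coloured by complex. Most of the 82 genes lie in the upper right part, Ndufs4 is far out on both axes, and Ndufc2 is negative at both times.

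Over the assay itself these genes had a median change near 0 in control cells. From 0 h to 36 h 0 rose and 0 fell in limma (0.25% and 0.111% of all genes). The counts at an unadjusted p under 0.05 were 0 and 0, beside 454 higher and 349 lower of all 14426 genes. The members' median difference was -0.0025. In 9 genes all 36 h controls lay below all 0 h controls (12.3% of all genes), among them Sdhb and Sdhd, and in 0 above (9.55%). Without knockdown 0 h library 2, which changes only the shared estimate of spread here, 0 rose and 1 fell (1.19% and 1.56% of all genes). Of the 82 members 3 were higher and 6 lower at an unadjusted p under 0.05, beside 1004 and 1242 of all 14426 genes. Of the lower members 2 were in complex II. In the knockdown 0 rose and 0 fell (0.998% and 0.125% of all genes). The counts at an unadjusted p under 0.05 were 0 higher and 22 lower, beside 1917 and 446 of all genes. The members' median there was -0.24 while that of all genes was 0.33. In this comparison 32 members were lower at 36 h without overlap (3.91% of all genes) and 0 higher (15%). Leaving out library 2 gave a median of -0.19 against 0.07, with 49 genes lower without overlap (11.5%) and 0 higher (17.5%). Cox7a2l was then the 1 gene that fell (-0.36, SE 0.0800, limma adjusted p = 0.0446), where 1.94% of all genes rose and 0.922% fell. The counts at an unadjusted p under 0.05 were 0 higher and 28 lower, beside 1349 and 820 of all genes. The difference between the change in the knockdown and the change in control was called for 0 of the 82 and 0 of all genes. At an unadjusted p under 0.05 it was positive in 0 members and negative in 4, beside 572 and 194 of all genes. Its median was -0.27 over the 82 and 0.34 over all genes, and -0.21 and 0.08 without library 2. In that fit 0 members were called, where 0.0624% of all genes were called higher and 0.0139% lower. There the counts at an unadjusted p under 0.05 were 0 members higher and 11 lower, beside 756 and 294 of all genes. After adjustment a change over time that depends on the knockdown was not shown for any of the 82.

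**Figure D4:**
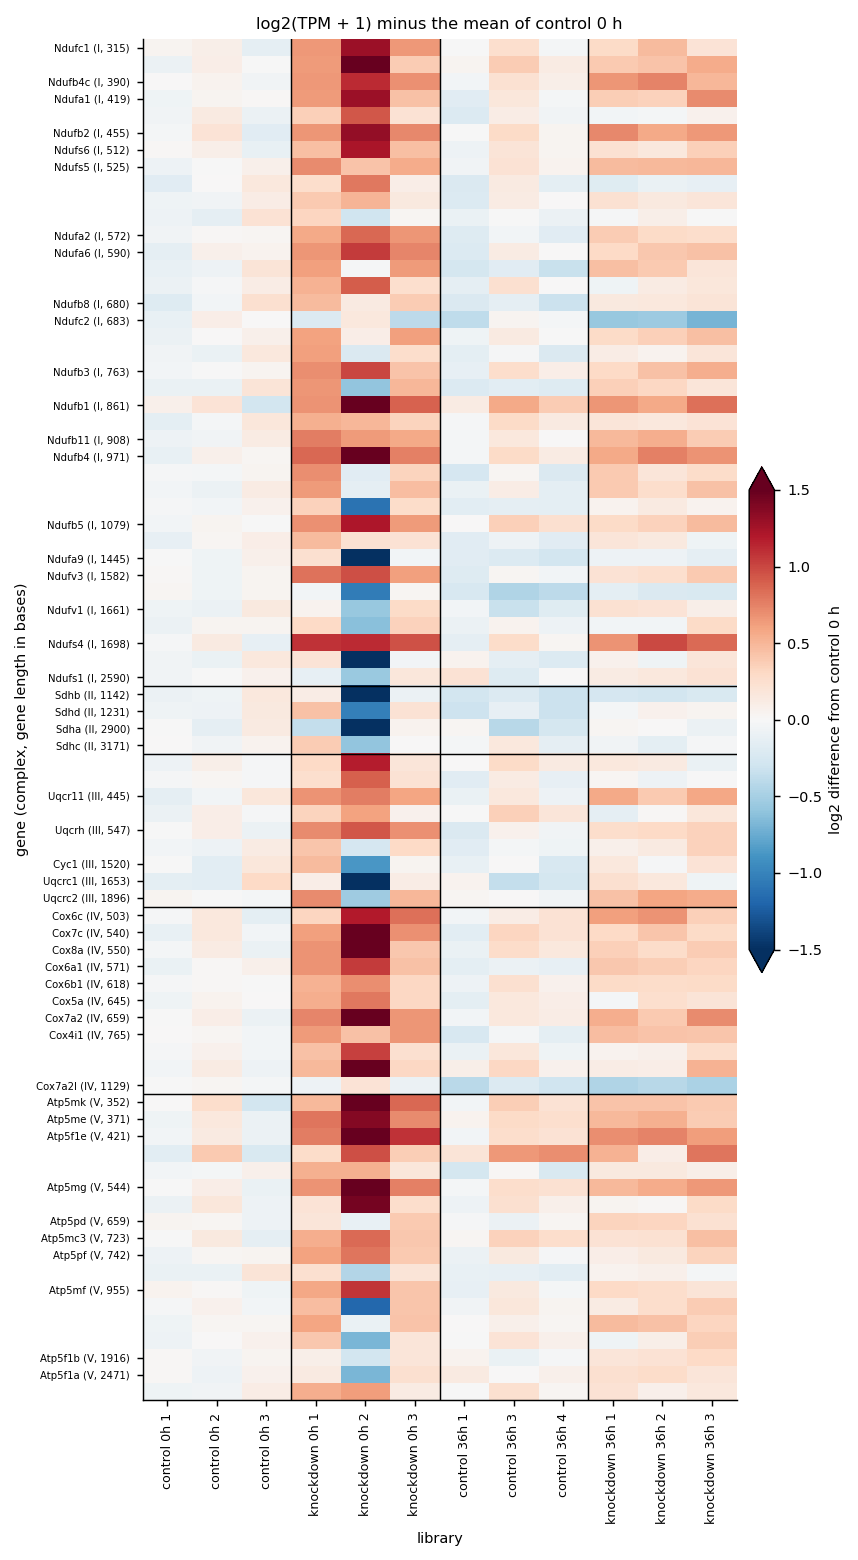
Level of the 80 tested genes averaging 40 TPM or more, shown for each library as the log2(TPM + 1) difference from the mean of control 0 h, by complex and, within a complex, by gene length (in bases, in brackets; some genes carry a label), with the colour scale ending at 1.5 in each direction. Knockdown 0 h library 2 runs from red for short genes to blue for long ones, while libraries 1 and 3 and the 36 h knockdown libraries are mostly light red.

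Gene length separated the members in knockdown 0 h library 2. The log2 ratio of this library to the mean of libraries 1 and 3 ran from -3.17 (Uqcrc1) to 2.75 (Ndufb4b). Its median was 0.66 for the 15 members under 500 bases, 0.38 for 24 of 500 to 699 bases and 0.06 for 15 of 700 to 999 bases. It was -0.66 for 12 members of 1000 to 1499 bases and -0.91 for 16 of 1500 bases or more. All tested genes of these lengths had medians of 0.18, 0.21, -0.35, -0.83 and -0.85. The Spearman correlation of the ratio with length was -0.69 across the 82 members and -0.08 across all tested genes. The sum of members under 1000 bases was 8.81 times that of the longer ones in library 2 and 3.69 to 4.61 times in the other 11 libraries, and complex IV stood at 47.0 times complex II there and at 7.67 to 11.9 times elsewhere. Of the 28 members of 1000 bases or more, 6 had a positive ratio, namely Cox7b (1001 bases, 1.55), Ndufb5 (0.55), Cox7a2l (0.29), Atp5mc1 (4660 bases, 0.28), Ndufv3 (0.25) and Ndufs4 (1698 bases, 0.10).

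**Figure D5:**
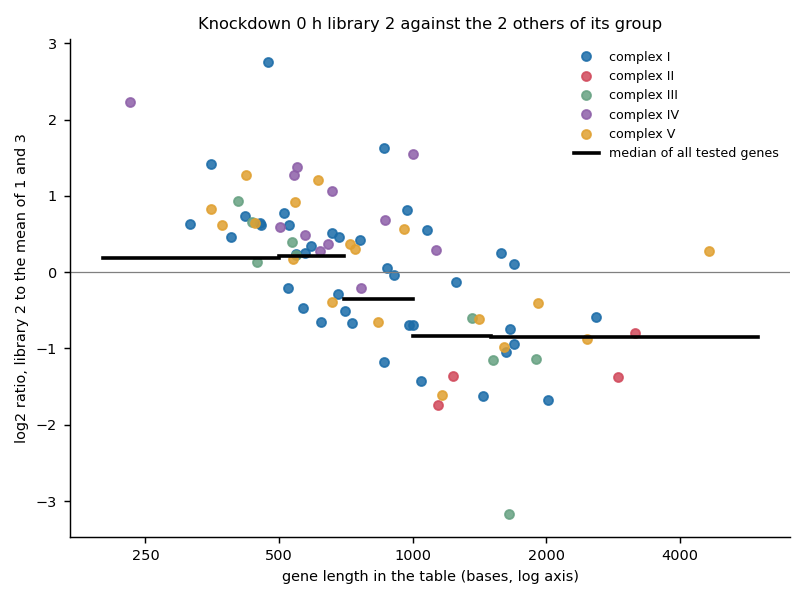
Log2 ratio of knockdown 0 h library 2 to the mean of libraries 1 and 3 (y axis) against gene length in bases (x axis, log scale), 1 point per tested gene of the set, coloured by complex, with black bars for the median of all tested genes in 5 length classes. Points fall with length, from a median of 0.66 under 500 bases to -0.91 at 1500 bases or more, and Uqcrc1 is lowest at -3.17.

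Length also went with the knockdown difference in the whole table. The tested members had a median length of 727.5 bases and all tested genes one of 2442.5 bases. At 0 h 30 of 54 members under 1000 bases and 3 of 28 longer ones rose, and without library 2 these were 39 and 11. The called shares of all genes by length are not given here, and whether this split is particular to the members was not tested. All tested genes under 1000 bases had a median of 0.29 at 0 h and longer ones -0.49 (0.21 and -0.22 without library 2). Set against genes of their own length, without library 2, the members' medians were 0.63 against 0.34 under 500 bases, 0.44 against 0.22 at 500 to 699, 0.51 against 0.13 at 700 to 999, 0.35 against 0.04 at 1000 to 1499 and 0.19 against -0.26 at 1500 bases or more. At 36 h they were 0.24 against 0.09, 0.26 against 0.07, 0.32 against 0.08, 0.21 against 0.05 and 0.18 against -0.14. The members' median was the higher in each class at both times, and the part of length in the result was not tested.

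The mitochondrially encoded genes of the same complexes varied widely between the libraries of a group. The 13 proteins summed to 31000, 30147 and 14150 TPM in control 0 h and to 38420, 72263 and 18552 TPM in the knockdown at 0 h. At 36 h they summed to 27346, 56665 and 38175 TPM in control and to 47251, 27353 and 59113 TPM in the knockdown, so the groups overlapped at both times. None passed in limma in any comparison. Of all 14426 genes 1050 were higher and 4331 lower at an unadjusted p under 0.05 at 0 h, and 788 and 1557 at 36 h. Of the 13 proteins 2 were higher and 0 lower at 0 h, and 0 higher and 1 lower at 36 h. Their median was 0.89 at 0 h (0.14 without library 2) and 0.16 at 36 h, and over time it was 0.88 in control and -0.03 in the knockdown (0.90 without library 2). The ratio of their sum to that of the nuclear genes ran from 0.250 to 0.952 over the other 11 libraries and was 0.741 in library 2. In library 2 mt-Rnr2, a ribosomal RNA, stood at 15578 TPM against 341 to 1966 TPM elsewhere, and mt-Nd2, a complex I subunit, at 3331 TPM against 170 to 1114 TPM. The complex IV subunit mt-Co1, at 1862 TPM there, lay within the 1114 to 8303 TPM of the others.

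Genes that build the complexes were called in both directions. Of 57 assembly factors 11 rose and 3 fell at 0 h, where 3.1% and 14.6% of all genes did, with a median of -0.03. Without library 2 these counts were 19 and 3 (6.74% and 16.5% of all genes), with a median of 0.13. At 36 h 1 rose, where 0.894% of all genes rose and 1.64% fell. Without library 2 the 36 h counts were 10 higher and 4 lower (6.88% and 11.7% of all genes). Cox17, a copper chaperone for complex IV, went from 525 ± 40.7 TPM in control to 974 ± 187 TPM (0.88, adjusted p = 0.00773). Pet100 and Cmc1 rose as well (1.13 and 1.21), and Ndufaf3, a complex I assembly factor, fell (-1.02, adjusted p = 0.0127). Sdhaf4, which helps to mature succinate dehydrogenase, rose by 0.69 at 0 h (adjusted p = 0.0172) and by 0.80 at 36 h (adjusted p = 0.0294). The 36 h level of Sdhaf4 was 324 ± 13.3 TPM with the knockdown against 187 ± 19.7 TPM without it.

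The further lists around the chain are read against the 3.1% of all genes that rose and 14.6% that fell at 0 h (6.74% and 16.5% without library 2). At 36 h these shares were 0.894% and 1.64% (6.88% and 11.7% without library 2). Of 18 tested genes of electron carriers and coenzyme Q synthesis 0 rose and 3 fell at 0 h, with a list median of -0.49. The 3 were Coq6 (-0.73), Coq8b (-0.72) and Pdss1 (-0.78). Without library 2 the median was 0.07, Coq6 and Coq8b fell, Coq2 rose (0.38) and Pdss1 lost its call. Coq2 also rose at 36 h without library 2 (0.77, limma adjusted p = 5.24e-04), and was not called there with all libraries. The list for the tricarboxylic acid cycle, which supplies the chain, also holds genes of pyruvate dehydrogenase (Pdha1, Pdhb, Dlat and Pdhx) and pyruvate carboxylase (Pcx). Of its 19 genes 0 were called at 0 h. At an unadjusted p under 0.05, 0 of them were higher and 4 lower, beside 1050 and 4331 of all 14426 genes. These 19 genes had a median of -0.61. Without library 2 their median was 0.03, and Idh3g fell (-0.49).

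A list of 22 nuclear genes held regulators of mitochondrial genes and factors that copy or express mitochondrial DNA, such as Mgme1, Mtif2 and Tefm. Of these 22 genes 0 rose and 2 fell at 0 h, Myc (82.4 ± 8.12 to 27.3 ± 17.1 TPM, -1.83, adjusted p = 0.0202) and Pprc1 (-1.25, adjusted p = 0.0473). Without library 2 Myc had -1.15 (limma adjusted p = 7.07e-04), Pprc1 lost its call, Mgme1 (-0.62) and Mtif2 (-0.47) fell and Tefm rose (0.40). At 36 h Myc (-0.98, limma adjusted p = 0.00113) and Gabpb2 (-0.83, adjusted p = 0.0357) fell without library 2. Neither was called at 36 h with all libraries. Of 6 tested hypoxia-linked genes 0 rose and 2 fell at 0 h. Egln3, an oxygen-sensing hydroxylase, fell at both times (-1.59 and -1.07, with adjusted p of 0.00217 and 0.0334), and at 0 h its value was -1.41 without library 2. Hif1a fell at 0 h (-0.96, adjusted p = 0.0418) and lost that call without library 2, where Bnip3 rose (0.64). Ckmt1, the mitochondrial creatine kinase, fell at both times (-1.13 and -0.81) among 7 carriers of ATP and metabolites, and without library 2 Vdac3 fell too (-0.45). Of 19 genes of the import complexes 4 rose and 0 fell at 0 h, with the small proteins Timm8b (1.01) and Tomm7 (1.11) among them, and without library 2 these counts were 7 and 1 (Tomm6, -0.50). At 36 h Timm8b rose (0.71) and Tomm6 fell (-0.96).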

How the data were processed

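Messenger RNA was measured in 12 libraries, 3 in each of 4 groups taken from the labels. The deposited values are TPM per gene, made by the authors; GRCm39, HISAT2 2.2.1, cutadapt 1.9.1, HTSeq, FastQC and DESeq2 appear in the submitters' processing notes, and which of them made the TPM is not given in the sources used here. TPM hold no depth, so no counting interval can be given. The authors' 5 pooled columns were not used. Genes that reached 1 TPM in 3 or more libraries were tested on log2(TPM + 1), a scale that understates the change of low genes, with limma 3.58.1 in R 4.3.3. One mean per group was fitted over all 12 libraries with a variance trend, and p-values were adjusted by the Benjamini-Hochberg method over 14426 genes, with a threshold of 0.05. The 5 comparisons were knockdown against control at each time, 36 h against 0 h in each genotype, and the difference of the changes over time. The fit was tested on simulated data. The members and gene lists were chosen with earlier results of these data known. Genes named with values were up to 6 of the largest called members per direction and comparison with a mean of at least 5 TPM, fixed subunits of each complex, alternative forms with their common partners, the highest and lowest tested gene of each complex, Snai1, the 13 mitochondrially encoded proteins, and up to 4 called genes of each further list. Other members, and Tomm7, Sdhaf4 at 0 h, mt-Rnr2 and list genes called only without knockdown 0 h library 2, were named after their values were seen. A result for 1 gene is not reported here. Alternatives were other pseudocounts, filters, scalings, fits and left-out libraries.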

Additional observations from a re-analysis of the deposited data

How the results depend on the processing

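Results were recomputed under 26 alternatives (25 for the difference of the changes, which a fit of 2 groups cannot give). All changed 1 choice at a time except median-of-ratios scaling of 11 libraries, which joins a scaling with a left-out library, and the set of 10 libraries, which leaves out 2. The cause of a move was not tested in any setting. The positive median of the members at 0 h and 36 h and the negative median over time in the knockdown kept their sign in all of them. The number that passed did not: at 0 h the 33 members higher became 13 with no filter (1258 genes of all), 0 with only the groups compared (16) and 51 with median-of-ratios scaling of 11 libraries, without knockdown 0 h library 2. Their median became 0.97 with median-of-ratios scaling, 0.30 with quantile normalization, 0.63 with ribosomal protein and mitochondrially encoded genes removed and 0.62 with median-of-ratios scaling of 11 libraries.

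At 36 h the 2 members higher became 0 with no filter (192 genes) or no variance trend, 6 with quantile normalization (933), 26 with 1 lower with only the groups compared (2176), 22 with median-of-ratios scaling of 11 libraries (2678, median 0.34) and 17 with 1 lower in 10 libraries, without knockdown 0 h library 2 and control 36 h library 4 (1439). The last setting was chosen after seeing the data. Median-of-ratios scaling called 813 genes (median 0.33), and removal of ribosomal protein and mitochondrially encoded genes 581. Over time in control, all genes called numbered 85 with median-of-ratios scaling, 111 with quantile normalization, 247 with only the groups compared, 376 with median-of-ratios scaling of 11 libraries and 159 in 10 libraries, where 1 member was higher. Over time in the knockdown they numbered 18, 399 and 255 in the last 3 of these settings, and the members' median was -0.61 with median-of-ratios scaling, -0.13 with quantile normalization and -0.32 with the removal of those genes. For the difference of the changes, 1 gene was called with no filter, 1 with median-of-ratios scaling (median -0.63), 1 with quantile normalization (-0.12), 3 with the removal (-0.39), 6 with median-of-ratios scaling of 11 libraries and 10 in 10 libraries.

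Deviations of same-numbered libraries from their group means had correlations from -0.287 to 0.132. With 3 libraries per group these deviations depend on each other, and differently numbered libraries were not compared. The values therefore do not decide whether replicate numbers pair the libraries. With a replicate block 13 members were higher at 0 h (1011 genes) and 0 at 36 h (5 genes). The replicate block called 6 genes over time in control, 40 in the knockdown and 1 for the difference of the changes (median -0.34).

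Leaving out each library in turn gave 5 to 50 members higher and 0 to 1 lower at 0 h (747 to 5853 genes, median 0.44 to 0.58). At 36 h it gave 0 to 29 higher and 0 to 1 lower (24 to 2683 genes, median 0.22 to 0.29). Over time it gave 0 to 0 higher and 0 to 1 lower in control (17 to 397 genes, median -0.06 to 0.06) and 0 to 0 higher and 0 to 1 lower in the knockdown (47 to 1541 genes, median -0.33 to -0.19). For the difference of the changes it gave 0 to 0 higher and 0 to 0 lower (0 to 11 genes, median -0.35 to -0.21). The lowest count at 0 h was without control 0 h library 1 and the highest without knockdown 0 h library 2. At 0 h, 3 negative differences turned to called positive ones: Atp5f1a (0.37) and Ndufv1 (0.36) with median-of-ratios scaling of 11 libraries, and Sdhd (0.33) without knockdown 0 h library 2, where leaving out other libraries gave values down to -0.40. Of 2024 recomputed values for named members 150 lost a call, 60 gained one and 1811 did neither, but 75 values that passed in neither fit changed sign. TPM give no depth, so precision rests on 3 libraries per group.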
